A study of Mus musculus with 88 samples.

Results

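The genes described here are 7 C-type lectin receptors of myeloid cells, Clec4d, Clec4e, Clec4n, Clec5a, Clec7a, Clec12a and Clec4a2, among the 54532 genes counted in mouse cortex after a contusion. They were found by gene symbol. The set was chosen by measured values: Clec4d and Clec4e had almost no reads in naive cortex and many after impact. So the injured ipsilateral levels against naive, and against the other side, are given as a description without a test. Other contrasts were tested: 72 h against 24 h, the contralateral side, the sexes and steroid hormone levels. They share libraries with the choice and were chosen with earlier results known, so they are not independent of it.

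Controlled cortical impact drives a piston into exposed cortex. Male and female C57BL/6 mice, 8 to 9 weeks old, were hit over the right somatosensory cortex (craniotomy 3 mm, tip 2 mm, 6.0 m/s, depth 1 mm, 100 ms), received buprenorphine at 0.05 mg/kg, and were perfused 24 or 72 h later. A 4 mm punch of the ipsilateral and of the contralateral cortex gave 1 RNA library each, and in naive mice the right punch is the one labelled ipsilateral. Ipsilateral libraries numbered 13 naive (7 females, 6 males), 15 at 24 h (7 females, 8 males) and 15 at 72 h (9 females, 6 males). The contralateral side had the same numbers, with 16 libraries at 72 h. No group had surgery without impact, so impact, surgery and buprenorphine cannot be told apart.

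Myeloid C-type lectin receptors sit on macrophages, monocytes, neutrophils, dendritic cells and, in the brain, microglia, and bind sugars and lipids of microbes or molecules from dying cells. Clec4d, Clec4e and Clec4n signal through the adaptor Fcer1g, Clec5a through the adaptor Tyrobp and Clec7a through a tyrosine motif of its own. All of these routes reach the kinase Syk, and several continue to Card9, Bcl10 and Malt1 and the induction of cytokines. Clec12a and Clec4a2 carry inhibitory motifs that recruit phosphatases such as Ptpn6 and Ptpn11.

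All 7 genes lie on chromosome 6 (GRCm38, GENCODE M21). Clec4a2 (chr6:123106428-123143999, + strand), Clec4n (chr6:123229843-123247021, +), Clec4d (chr6:123262111-123275265, +) and Clec4e (chr6:123281789-123289870, − strand) share a stretch of 183.4 kb. Clec4d and Clec4e face each other with their 3′ ends 6.52 kb apart. Clec12a (chr6:129342691-129365303, +) and Clec7a (chr6:129461591-129472779, −) lie 96.3 kb apart and 6053 kb from Clec4e, and Clec5a (chr6:40574894-40585821, −) is far from both groups. The annotation calls Clec7a a polymorphic pseudogene and the other 6 protein coding.

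The 250 bases before the RefSeq start are shown for the pair that defines the set, Clec4d and Clec4e, and for Clec7a, whose transcripts ended highest in CPM at 72 h; 6 of the 7 genes matched a RefSeq promoter (GRCm38.p6), and Clec4n did not. The regions are chr6:123261857-123262106 (+) for Clec4d, chr6:123289872-123290121 (−) for Clec4e and chr6:129472780-129473029 (−) for Clec7a. Each is written 5′ to 3′ on the strand of its gene, and capitals mark matches on either strand to GAGGAA, the core of sites of the ETS factor PU.1 (Spi1), or to TTNNGNAA, a C/EBP pattern.
Clec4d: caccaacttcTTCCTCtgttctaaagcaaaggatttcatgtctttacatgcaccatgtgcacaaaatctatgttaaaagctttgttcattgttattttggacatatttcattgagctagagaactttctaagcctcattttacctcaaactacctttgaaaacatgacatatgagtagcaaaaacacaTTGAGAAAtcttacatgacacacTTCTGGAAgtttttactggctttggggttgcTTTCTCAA
Clec4e: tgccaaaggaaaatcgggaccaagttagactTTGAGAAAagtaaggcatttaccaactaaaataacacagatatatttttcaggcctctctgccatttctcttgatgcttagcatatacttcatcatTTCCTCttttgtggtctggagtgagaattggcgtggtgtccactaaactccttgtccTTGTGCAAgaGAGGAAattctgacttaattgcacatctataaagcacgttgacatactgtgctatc
Clec7a: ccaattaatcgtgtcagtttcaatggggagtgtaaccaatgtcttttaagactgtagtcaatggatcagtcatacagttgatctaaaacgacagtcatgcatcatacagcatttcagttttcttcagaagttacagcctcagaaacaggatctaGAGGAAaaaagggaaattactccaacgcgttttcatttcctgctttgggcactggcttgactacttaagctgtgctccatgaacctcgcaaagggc
Clec4d held 1 GAGGAA match and 3 TTNNGNAA matches, the last ending on the base before the start. Clec4e held 2 of each, and Clec7a 1 and 0. Of 27025 promoters of the same length 23.1% held GAGGAA and 36.9% TTNNGNAA, so such matches are common. An AP-1 pattern (TGANTCA, in 6.87% of promoters) had no match in these 3 windows. A match in letters is not a shown binding site.

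Libraries held 10.6 to 26.36 M counts, so 1 read is worth about the lowest values printed below; levels are given in CPM, counts scaled to the total of the library, unless stated. Summed markers of neurons, astrocytes and oligodendrocytes lay between 7290 and 12700 CPM in all ipsilateral groups. The ipsilateral library of the 24 h male DM2 held 846 CPM of summed neutrophil markers, against at most 165 in the other 24 h libraries, and bone marrow genes such as Elane at 39.7 CPM, against at most 0.283. The naive male EM3 held 25.4 CPM of neutrophil markers, against at most 9.44 in other naive ipsilateral libraries. The 72 h female LF3 held 426 CPM of homeostatic microglial markers, against at least 1280. Its activated microglial markers, at 4110 CPM, lay within the 3460 to 10400 CPM of the 72 h libraries. The ipsilateral library labelled PF1, a 72 h female, had 60.2 CPM of the Y-linked Ddx3y and 0.112 CPM of Xist, and it was counted as a female, as labelled, in every female and sex comparison. The ipsilateral library of PM1, whose labels disagree on sex, had no Ddx3y and 489 CPM of Xist, and it was left out of every group. The batches named in the labels are uneven. Batch A has 9 naive and 7 24 h animals, batch B 4 naive, 8 24 h and 6 72 h animals, and the 10 animals of batch C all belong to 72 h. A fit with a batch term therefore sets 72 h against 24 h from the 5 assigned ipsilateral 72 h libraries of batch B.

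In naive cortex Clec4d and Clec4e were nearly silent, and both were present in every injured ipsilateral library. Clec4d (MCL) pairs with Clec4e and helps bring it to the cell surface. Clec4d lay at 0, 0 and 0.0687 CPM (lowest, median and highest) in naive libraries, at 1.63, 6.21 and 17.6 CPM at 24 h and at 2.03, 7.05 and 19.7 CPM at 72 h. Its only naive read, 1 in 13 libraries, was in EM3. Against that read, summed rates were 1720-fold higher at 24 h (95% counting interval 309 to 68100) and 1680-fold higher at 72 h (301 to 66400). Such intervals, here and for Clec4e below, cover counting error only and not the spread between animals, and they are no test. Among females, where naive libraries had no read, they were at least 238-fold higher at 24 h and at least 318-fold higher at 72 h, taking 3 counts over the naive group as its floor.

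Clec4e (Mincle) senses mycobacterial cord factor and SAP130, the Sf3b3 product released by dead cells. It lay at 0, 0 and 0.0632 CPM in naive libraries, at 1.88, 8.23 and 20.5 CPM at 24 h and at 0.552, 1.25 and 3.33 CPM at 72 h. Every injured library was above every naive one, and the 72 h libraries lay mostly below those at 24 h. Its 1 naive read was in the female KF2. Summed rates were 1680-fold higher than naive at 24 h (301 to 66400) and 338-fold higher at 72 h (60.3 to 13400). Among males, with no naive read, they were at least 300-fold higher at 24 h and at least 59.6-fold higher at 72 h.

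Clec4n (Dectin-2, a receptor for fungal mannans) was low but present in naive cortex, at 0, 0.207 and 1.24 CPM. It lay at 2.28, 4.41 and 11.2 CPM at 24 h and at 1.8, 5.86 and 19.4 CPM at 72 h. Its medians were 21.3-fold the naive median at 24 h and 28.3-fold at 72 h. Clec5a (MDL-1) had reads in every naive library, at 0.241, 1.45 and 2.42 CPM, against 4.51, 7.44 and 14.7 CPM at 24 h and 3.49, 8.73 and 15.8 CPM at 72 h. No injured library of either gene fell within the naive range, and the median folds of Clec5a, 5.12 at 24 h and 6.01 at 72 h, were smaller than those of Clec4n.

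Clec7a (Dectin-1) binds fungal beta-glucans and is a marker of activated microglia. It lay at 0, 0.241 and 0.892 CPM in naive libraries, at 1.41, 4.86 and 11.1 CPM at 24 h and at 3.96, 10.6 and 17.7 CPM at 72 h. All injured libraries were above all naive ones, with medians 20.2-fold the naive median at 24 h and 43.9-fold at 72 h.

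Both inhibitory receptors overlapped naive levels. Clec12a, a receptor for uric acid crystals, lay at 0, 0.102 and 1.24 CPM in naive libraries, at 0.0626, 0.427 and 9.88 CPM at 24 h and at 0.382, 1.79 and 4.88 CPM at 72 h. The highest 24 h value was DM2 with 180 reads and the highest naive value EM3 with 18 reads, the libraries high in neutrophil markers. At 24 h 1 of 15 libraries was above every naive library, and 8 of 15 were at 72 h. The overlap at 72 h was with EM3 alone. The other naive libraries reached at most 0.186 CPM in females and 0.121 CPM in males, below every 72 h library. Clec12a was 2.63 above naive at 24 h on the fitted log2 scale, 1.53 without DM2 and 3.46 without EM3; at 72 h it was 4.35, 3.42 without DM2 and 5.06 without EM3. Clec4a2 (DCIR) lay at 0.45, 0.828 and 1.37 CPM in naive libraries, at 0.272, 1.09 and 3.68 CPM at 24 h and at 0.502, 2.06 and 4.35 CPM at 72 h. At 24 h 6 of 15 libraries were above every naive one, and 11 of 15 at 72 h. Clec4a2 belongs to a family of close copies (Clec4a1, Clec4a3), and how reads shared with them were counted is not given in the sources used here.

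**Figure D1:**
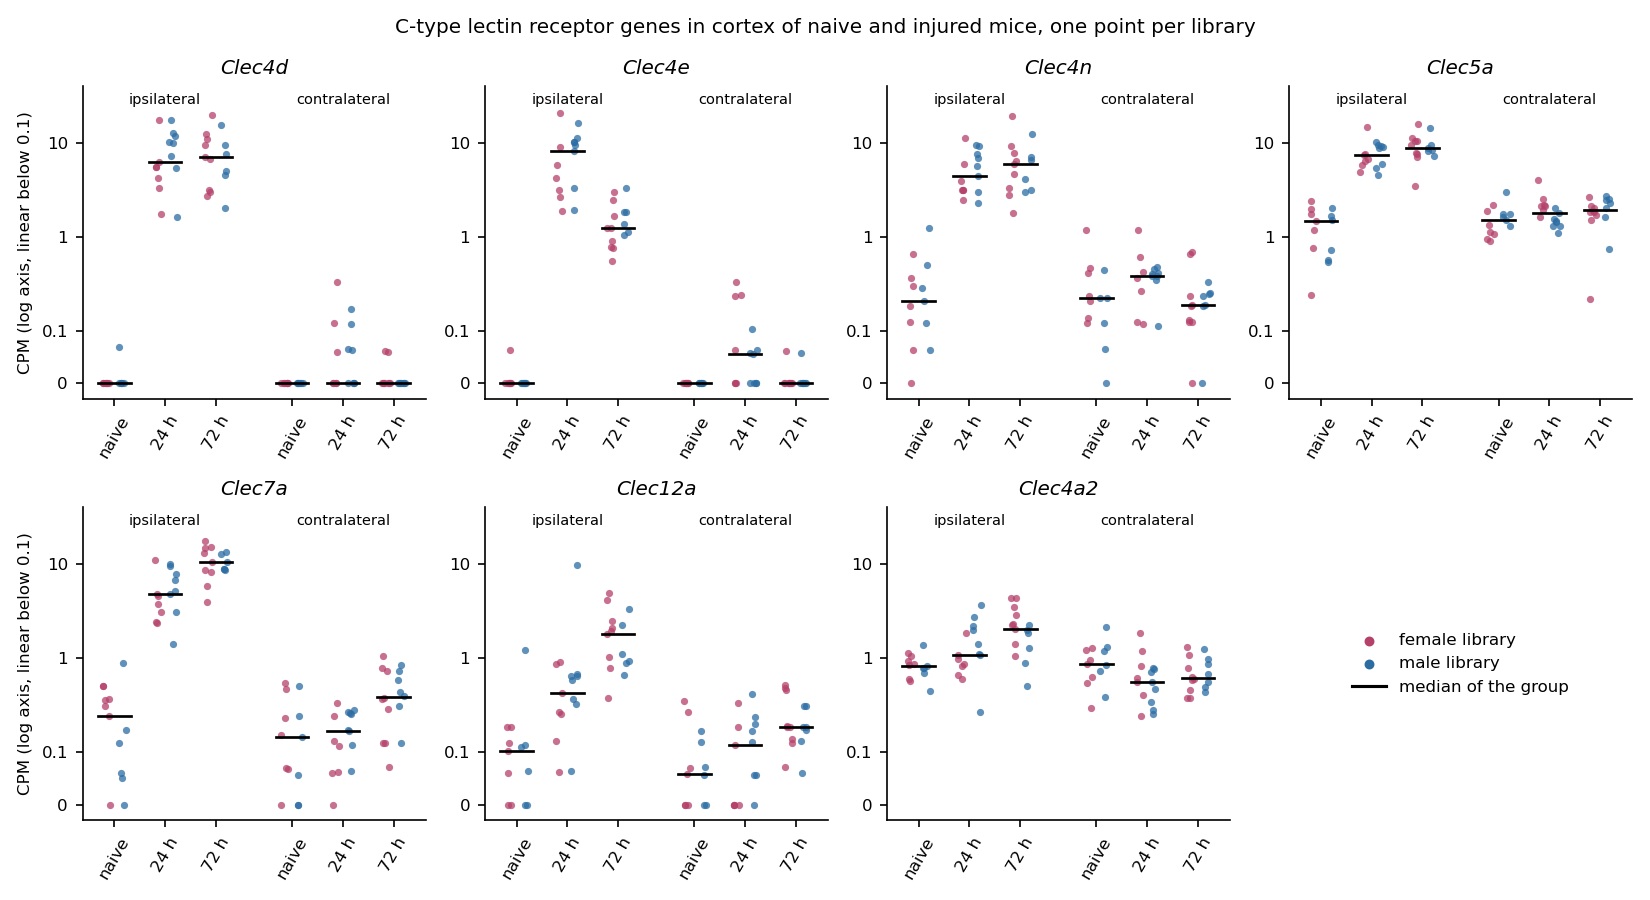
Each point is 1 library, with CPM on a log axis that is linear below 0.1, by time and side, females left and males right of each group's centre; black lines are group medians. Clec4d and Clec4e stand at 0 in nearly all naive libraries, and Clec4e falls to a median of 1.25 CPM at 72 h, against 8.23 at 24 h, on the ipsilateral side.

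For 5 genes (Clec4d, Clec4e, Clec4n, Clec5a and Clec7a) no injured ipsilateral library overlapped a naive one, at either time. Among all 19126 genes tested 5.98% stood wholly above naive at 24 h and 7.18% at 72 h; the choice of the set used this contrast, so nothing is read from the difference. By the adjusted p, 22.9% of all genes were higher and 20.1% lower than naive at 24 h, and 27.8% were higher at 72 h.

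Levels between genes were compared per exon length, as CPM per kilobase of exon (RPKM). In naive cortex Clec5a led with a median of 0.378 RPKM, then Clec4a2 with 0.283, Clec4n with 0.146 and Clec7a with 0.0914 RPKM. Clec5a was above Clec4a2 in 8 of 13 naive libraries, so these neighbours do not separate. At 24 h Clec4d led with 3.88 RPKM, above Clec4n at 3.11 RPKM in 11 of 15 libraries. Then came Clec5a at 1.94, Clec7a at 1.84, Clec4e at 1.66, Clec4a2 at 0.374 and Clec12a at 0.0772 RPKM, with Clec5a above Clec7a in 8 of 15 libraries. At 72 h Clec4d at 4.41, Clec4n at 4.13 and Clec7a at 4.02 RPKM could not be ordered, each above the next in 9 and 8 of 15 libraries. Below them Clec5a at 2.27 RPKM and Clec4a2 at 0.703 RPKM separated from their neighbours, while Clec12a at 0.324 RPKM was above Clec4e, last at 0.251, in 8 of 15.

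The summed RPKM of the 7 genes had a median of 0.844 in naive, 12.1 at 24 h and 16.7 at 72 h libraries. Its make-up differed as well. Clec4d made up a median of 0, 33.7 and 25.4% of the sum in naive, 24 h and 72 h libraries. Clec4e made up 0, 10.4 and 1.7%, Clec7a 9.56, 13.3 and 26.5%, and Clec4a2 30.8, 3.12 and 3.89%. Clec4d was the highest gene in 11 of 15 libraries at 24 h and in 5 of 15 at 72 h, when Clec7a was highest in 6.

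**Figure D2:**
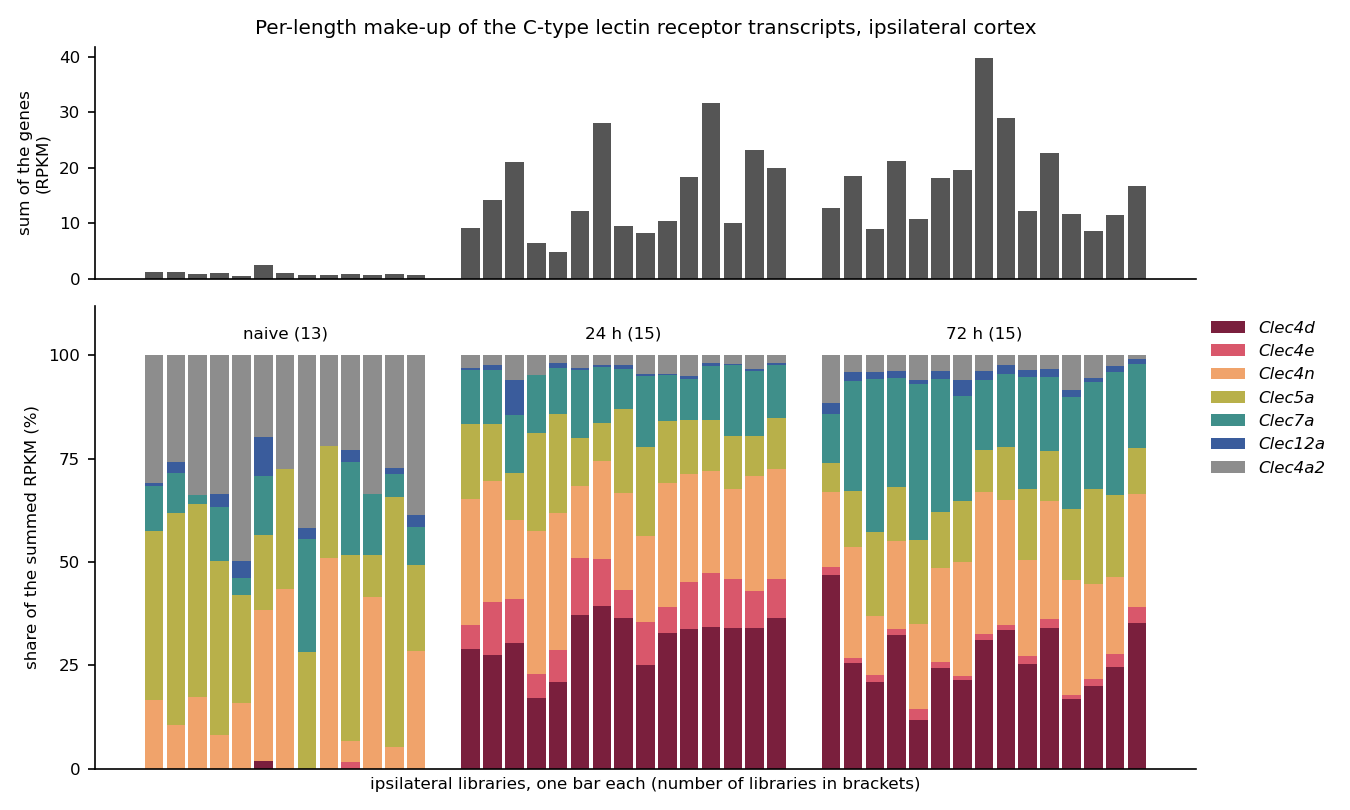
Each bar is 1 ipsilateral library; the upper panel gives the summed RPKM of the 7 genes and the lower panel each gene's share of it in percent. The sum has medians of 0.844, 12.1 and 16.7 RPKM in naive, 24 h and 72 h libraries, and the Clec4e share narrows to 1.7% at 72 h, against 10.4% at 24 h.

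Between 72 h and 24 h the ipsilateral levels parted. This comparison shares the 24 h libraries with the levels that chose Clec4d and Clec4e. Clec4e fell: its 72 h level was lower by log2 -2.68 ± 0.53 (SE; 95% interval -3.76 to -1.6; adjusted p = 0.000158 by the quasi-likelihood test of edgeR, Benjamini-Hochberg over 19126 genes). Of 15 libraries at 72 h, 12 lay below every 24 h library and all 15 below the 24 h median, which was 6.6-fold the 72 h median. Clec4e was the only one of the 7 genes called, 1 of 7, where 37% of all genes were called, 21.7% higher and 15.3% lower. It fell in females by 2.58 on the log2 scale (adjusted p = 0.000755) and in males by 2.78 (0.00175). Within batch B alone the change was -2.69 (adjusted p = 0.00291), and without a batch term -2.34 (1.1e-07).

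Clec4d, the partner of Clec4e, did not pass: its change was -0.35 ± 0.50 (interval -1.36 to 0.67, adjusted p = 0.619). Clec4n changed by -0.28 ± 0.45 (adjusted p = 0.652) and Clec5a by 0.01 ± 0.28 (-0.56 to 0.59, adjusted p = 0.976). Their 72 h and 24 h ranges overlapped almost wholly.

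Read against each other within a library, Clec4d and Clec4e were near 1 to 1 in counts at 24 h and apart at 72 h. The ratio of Clec4d to Clec4e counts was 1.48, 5.65 and 8.52 at 72 h (lowest, median, highest), against 0.695, 0.933 and 1.78 at 24 h. The male PM2 had the lowest 72 h ratio, inside the 24 h range, and the other 72 h libraries were above it. Within batch B the ratio was 1.48, 6.52 and 7.77 at 72 h (5 libraries), against 0.773, 1.1 and 1.78 at 24 h (8 libraries). The ratio was chosen after its values were seen and has no test; the genes differ in length, so 1 to 1 in counts is not 1 to 1 in transcripts.

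**Figure D3:**
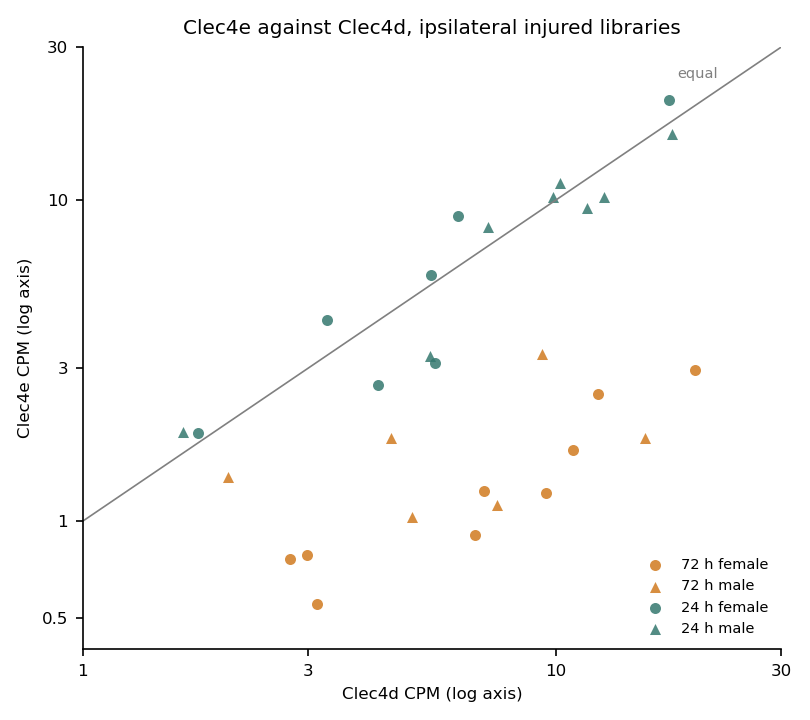
Each point is 1 injured ipsilateral library, with Clec4d CPM on the x axis and Clec4e CPM on the y axis, both log axes; the grey line marks equal counts. The 24 h libraries follow the line, with ratios of 0.695 to 1.78, and all 72 h libraries lie below it, at a median ratio of 5.65 Clec4d reads per Clec4e read.

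Clec7a, Clec12a and Clec4a2 had higher values at 72 h than at 24 h, and did not pass in the mean over the sexes. Clec7a changed by 0.88 ± 0.37 (adjusted p = 0.0585), Clec12a by 1.72 ± 0.74 (0.064) and Clec4a2 by 0.89 ± 0.37 (0.0515). For Clec7a 14 of 15 libraries at 72 h were above the 24 h median. Each of the 3 passed under some other setting: Clec7a without the batch term (0.97, adjusted p = 0.00149), Clec12a within batch B (1.76, 0.0312) and Clec4a2 with DESeq2 (0.93, 0.0407). By edgeR, Clec4a2 also passed with RLE scaling (0.92, adjusted p = 0.0476), and all 3 passed without the animals PF1 and PM1. Without DM2, EM3 and LF3, chosen after the data were seen, Clec7a (0.99, adjusted p = 0.0194) and Clec12a (1.61, 0.0188) passed. Clec4a2 did not pass there (0.55, adjusted p = 0.242). The following edgeR settings did not pass either. Within batch B Clec7a was 0.88 (adjusted p = 0.0924) and Clec4a2 0.83 (0.154). Without the batch term Clec12a was 1.07 (0.0745) and Clec4a2 0.55 (0.0718). These calls thus stand at the threshold, and the changes of Clec12a and Clec4a2 vary in size with the setting.

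In females alone, all 3 rose between 24 h and 72 h. Clec4a2 was at 72 h higher by 1.82 ± 0.45 (adjusted p = 0.00167), Clec12a by 2.74 ± 0.87 (0.014) and Clec7a by 1.13 ± 0.44 (0.0444). For both Clec12a and Clec4a2, 7 of 9 females at 72 h were above every 24 h female. With Clec4e, 4 of the 7 genes were called in females, against 33% of all genes. In batch B alone, where 3 of the 9 females at 72 h stand (LF3, PF1 and PF2), the 3 rises did not pass (Clec4a2 1.54, adjusted p = 0.0758; Clec12a 1.99, 0.0843; Clec7a 0.82, 0.263). Without PF1, the library with male transcripts, the same 4 genes were called in females: Clec4a2 at 2.17 (adjusted p = 0.000189), Clec12a at 3.03 (0.0087), Clec7a at 1.23 (0.039) and Clec4e at -2.41 (0.003). Without DM2, EM3 and LF3 the same 4 genes were called in females, with smaller rises of Clec4a2 (1.24, adjusted p = 0.0365) and Clec12a (1.93, 0.0258). Clec7a was there at 1.25 (adjusted p = 0.0177) and Clec4e at -2.76 (0.00121). The Clec7a call was lost in 18 of 43 fits that each left out 1 library, with adjusted p up to 0.133. In males only Clec4e was called, 1 of 7 against 23.1% of all genes, and Clec4a2 changed by -0.03 ± 0.45 (adjusted p = 0.97), Clec12a by 0.70 ± 0.90 (0.621) and Clec7a by 0.63 ± 0.46 (0.345).

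**Figure D4:**
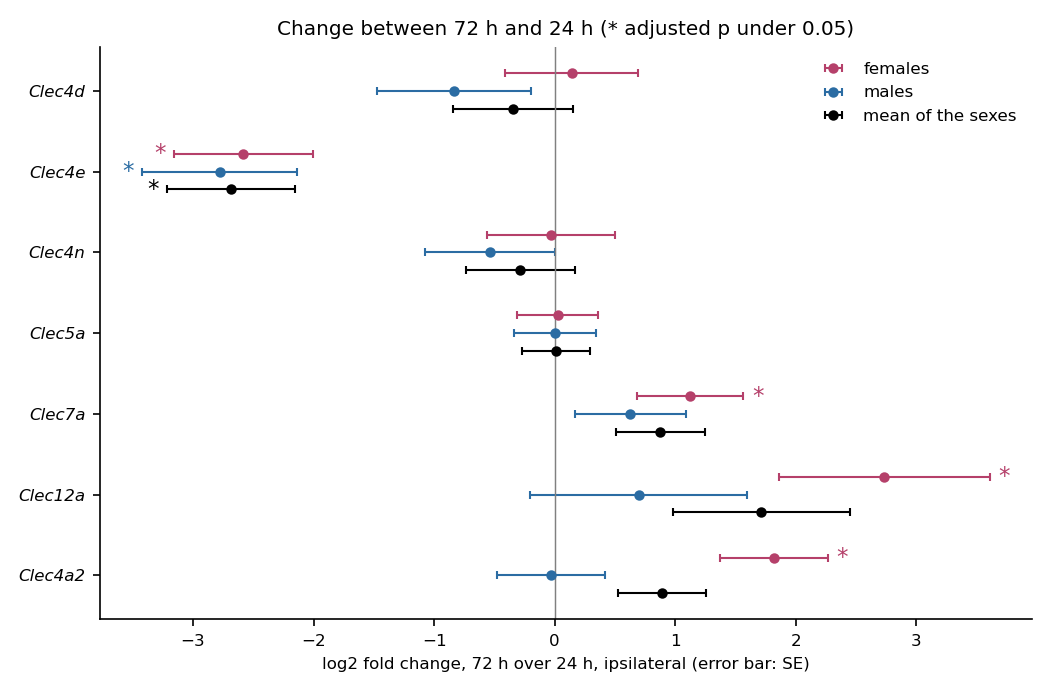
Points are fitted log2 fold changes of 72 h over 24 h on the ipsilateral side and bars their standard errors, for females, males and the mean over the sexes; a star marks an adjusted p under 0.05. Clec4e is lower in all 3 (-2.58, -2.78 and -2.68), and Clec7a, Clec12a and Clec4a2 carry a star in females alone.

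The difference between the sexes in these changes was tested itself and did not pass for any gene. For Clec4a2 the female change minus the male change was 1.85 ± 0.52 (adjusted p = 0.99 by edgeR), and for Clec12a 2.04 ± 1.01 (adjusted p = 0.99). Clec4a2 in females against males was 0.99 ± 0.37 at 72 h (adjusted p = 0.839) and -0.865 ± 0.36 at 24 h (adjusted p = 1). Without PF1 the sex by time terms were 2.02 for Clec4a2 and 2.17 for Clec12a (adjusted p = 0.866 each), and Clec4a2 in females against males at 72 h was 1.15 (0.375). Over naive, 24 h, 72 h, both sex by injury terms and sex by time, edgeR called 0 of the 7 genes in each and DESeq2 also 0. Unadjusted p was under 0.05 for 1 gene at 24 h, 1 at 72 h, 2 in sex by time and 0 in the other 3. Few genes of any kind differed by sex: 0.0366% in naive libraries and at 24 h, 0.0314% at 72 h and 0% in the interaction terms.

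Cell type markers moved over the same times. Of all genes 22.9% were higher and 20.1% lower at 24 h than naive, and 21.7% were higher and 15.3% lower at 72 h than at 24 h. Summed monocyte and macrophage markers had medians of 123, 355 and 803 CPM in naive, 24 h and 72 h ipsilateral libraries, and their highest libraries at 24 h and 72 h were RF1 (616) and SF3 (1670). Of their 12 genes 11 were higher and 0 lower at 24 h than naive. Between 24 h and 72 h only 4 rose and 2 fell (median log2 change 0.38), so the larger sum at 72 h is not a rise of the whole list. RF1 was also the highest 24 h female for all 7 genes, at 17.4 CPM of Clec4d and 20.5 of Clec4e, and SF3 the highest 72 h library for Clec4d, Clec4n, Clec5a, Clec7a, Clec12a and Clec4a2. Neutrophil markers had medians of 7.7, 63.3 and 45.6 CPM, and of their 9 tested genes 1 rose and 3 fell between 24 h and 72 h; Ly6g had no counts in naive ipsilateral libraries. Homeostatic microglial markers had medians of 417, 443 and 1690 CPM, and activated ones 1450, 1420 and 5110 CPM. The similar sums in naive and 24 h libraries hold genes that moved both ways. Of 12 homeostatic genes 3 were higher and 7 lower at 24 h than naive, led in p by P2ry12 (-2.09 ± 0.13), Slc2a5 (-2.18 ± 0.18) and Fcrls (1.56 ± 0.15). Of 12 activated genes 9 were higher and 1 lower, led by Lgals3 (7.23 ± 0.42), Cd9 (1.69 ± 0.12) and Spp1 (4.34 ± 0.30), while the abundant Apoe fell by 0.82 ± 0.17 (named after its value was seen). Between 24 h and 72 h 12 of 12 homeostatic and 10 of 12 activated genes rose. Border macrophage markers had medians of 40, 77.4 and 380 CPM, and pan-myeloid markers 63.3, 189 and 775 CPM. Dendritic markers stayed within 17.5 to 38.9 CPM and lymphocyte markers within 0.432 to 11 CPM. In bulk tissue fewer cells of a type and less RNA per cell cannot be told apart, and the part of these shifts in the receptor levels was not tested.

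The signalling partners were measured beside the receptors, and lists and counts below use the same fit. Each count stands beside the shares over all genes, 22.9% higher and 20.1% lower at 24 h than naive. At 72 h against 24 h these shares were 21.7% and 15.3%. Of 14 adaptor and kinase genes 11 were higher and 0 lower at 24 h than in naive cortex, and 12 higher and 0 lower at 72 h than at 24 h (median log2 change 0.82, against 0.009 over all genes). The adaptors Tyrobp and Fcer1g rose most between these times, by 3.57 ± 0.41 (adjusted p = 7.72e-09) and 3.25 ± 0.37 (8.49e-09), followed in p by the phospholipase Plcg2 at 1.41 ± 0.18 (6.38e-08). The exchange factor Vav1 (2.12 ± 0.17), the kinase Lyn (1.32 ± 0.13) and Syk (1.68 ± 0.17) led at 24 h against naive. Card9 itself was 0.80 ± 0.14 higher at 24 h than naive (adjusted p = 1.51e-05), and a further 0.61 ± 0.19 higher at 72 h than at 24 h (0.0114). The Fcer1g adaptor thus rose from 24 h to 72 h while its client Clec4e fell. Of 3 inhibitory phosphatases 2, Inpp5d (1.27 ± 0.15) and Ptpn6 (1.24 ± 0.22), rose between 24 h and 72 h, and Ptpn11 changed by -0.10 ± 0.10 (adjusted p = 0.458).

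Genes reported to be induced through Syk and Card9 were mostly high at 24 h. Of 16 tested among 19 listed, 14 were higher and 0 lower at 24 h than in naive cortex (median 3.34), led in p by the chemokines Ccl2 (7.65 ± 0.35) and Cxcl1 (6.70 ± 0.39) and by Nfkbiz, a regulator of NF-kB targets (1.80 ± 0.11). At 72 h against 24 h, 1 was higher and 9 lower (median -1.24). The neutrophil attractants Cxcl2 and Cxcl1 fell by 7.95 ± 1.14 (adjusted p = 7.95e-07) and 2.33 ± 0.39 (1.26e-05) on the log2 scale, and the cytokine Il1b fell by 2.49 ± 0.57 (0.000647). Il1a was the 1 gene that rose (1.04 ± 0.33, adjusted p = 0.0119), named after its value was seen. Such genes answer to many other signals too.

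Host ligands reported for these receptors were measured for 4 of 5 listed genes. Sf3b3, whose product is bound by Clec4e, was 0.26 ± 0.07 higher at 24 h than naive (adjusted p = 0.00129) and changed by -0.09 ± 0.09 between 24 h and 72 h (0.464). The reported Clec7a ligands galectin-9 (Lgals9, 2.17 ± 0.16, adjusted p = 2.48e-13), annexin A5 (Anxa5, 0.86 ± 0.13, 2.95e-06) and annexin A1 (Anxa1, 1.18 ± 0.45, 0.0363) rose between 24 h and 72 h.

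Of 9 myeloid transcription factors 8 were higher and 0 lower at 24 h than naive, led by Cebpd (3.90 ± 0.20), Spi1 (1.85 ± 0.16) and Rela (0.86 ± 0.07). Between 24 h and 72 h 4 were higher and 1 lower. Irf8 (1.46 ± 0.19), Cebpa (1.55 ± 0.25) and Spi1 (0.86 ± 0.20) rose with adjusted p of 8.23e-08, 5.63e-06 and 0.000722, and Cebpd fell by 0.63 ± 0.25 (0.0441; named after its value was seen).

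Other C-type lectin receptors were mostly not expressed enough to test: 14 of 30 listed were. With so few genes, and 22.9% of all genes higher at 24 h than naive, nothing is read from their 24 h count. Of these 5 were higher and 1 lower at 24 h than naive, led by Cd72 (3.18 ± 0.18), a B cell and macrophage receptor, the oxidised LDL receptor Olr1 (5.55 ± 0.61) and Ly75 (0.73 ± 0.15). Between 24 h and 72 h 9 were higher and 0 lower, led by the endothelial Clec14a (1.86 ± 0.22, adjusted p = 1.02e-08), Clec2d (2.52 ± 0.41, 7.19e-06) and Clec4a3 (1.78 ± 0.36, 0.000144).

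The neighbours on chromosome 6 were counted next. Within 250 kb of the 7 genes the annotation has 38 other protein-coding genes, of which 20 carry C-type lectin names and 11 were tested. Of the 11, 3 were higher and 2 lower at 24 h than naive, and 5 higher and 1 lower at 72 h than at 24 h. Of all genes 22.9% were higher and 20.1% lower in the first comparison and 21.7% and 15.3% in the second, and with so few neighbours nothing is read from the counts. The 6 tested lectin neighbours had changes between 24 h and 72 h of 2.52 (Clec2d), 1.78 (Clec4a3), 1.78 (Klrd1, adjusted p = 0.0184), 1.27 (Clec1a, 0.00473), 0.80 (Clec4a1, 0.209) and -0.31 (Olr1, 0.697). Olr1 lies 12.5 kb from Clec7a and Clec1a 9.6 kb.

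Likeness over the 43 ipsilateral libraries (Pearson r of log2 CPM among 14303 genes) is a description, since the libraries share group, depth and batch. Clec4e was most like Il1rn, the interleukin-1 receptor antagonist (0.985), Slfn4 (0.967), Hcar2 (0.949), Slfn1 (0.945) and Cd14 (0.941). Clec4d was most like Ccl2 (0.97), Fgr (0.97), Thbs1 (0.969), Cxcr4 (0.967) and Arg1 (0.964), and Clec4n was most like Thbs1 (0.967) and Clec4d (0.953). Clec5a was led by Slfn8 (0.956) and Ccr1 (0.943), Clec7a by Tnfrsf1b (0.966) and Csf2rb (0.961), Clec12a by Mmp13 (0.894) and Clec4a2 by Pdk4 (0.748). Of the receptors that use Fcer1g, Clec4d and Clec4n had Thbs1, Fgr and Cxcr4 in common among their 5 closest genes by this measure. The 5 of Clec4e held no gene of either list. These lists depend on the measure and on the libraries used.

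Within groups, after the means of sex, time and batch were removed from the 30 injured ipsilateral libraries, the lists changed in part. Clec4e stayed closest to Il1rn (0.948), followed by Cxcl2 (0.86), Clec4d (0.832), Cxcl3 (0.831) and Tnfrsf26 (0.822). Clec4d was led by Thbs1 (0.913), Lgals3 (0.907) and Cxcr4 (0.896), and Clec4n by Cd36 (0.871), Thbs1 (0.862) and Clec4d (0.854). Clec5a was led by the monocyte gene F13a1 (0.88), Clec7a by Ptafr (0.893), Clec12a by the monocyte receptor Ccr2 (0.859) and Clec4a2 by Atad5 (0.833). Thus a library high in Clec4d for its group tended to be high in Clec4e too.

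On the contralateral side traces of Clec4d and Clec4e appeared at 24 h. Clec4d had reads in 7 of 15 libraries at 24 h (15 reads in all) and in 2 of 16 at 72 h, against 0 of 13 naive libraries. Clec4e had reads in 8 of 15 at 24 h (19 reads), in 2 of 16 at 72 h and in 0 of 13 naive libraries, where 3 counts over the group would be 0.0142 CPM. At 24 h 10 of 15 libraries held at least 1 of the pair and 5 held both. The highest was RF1, with 5 reads of each (0.331 CPM), which also led its group on the ipsilateral side and in contralateral neutrophil markers (19.6 CPM, against at most 12.6). Both genes were under the limit on low counts, and a fit without that limit gave log2 changes at 24 h against naive of 2.99 for Clec4d (adjusted p = 0.111) and 3.37 for Clec4e (0.0519), neither called.

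The other contralateral levels were low at all times. Clec7a had medians of 0.145, 0.169 and 0.389 CPM in naive, 24 h and 72 h libraries, Clec12a 0.0586, 0.121 and 0.186 CPM and Clec4n 0.223, 0.386 and 0.188 CPM. Clec12a had reads in 16 of 16 libraries at 72 h, against 8 of 13 naive libraries. These 3 genes were under the limit on low counts too, and in the fit without it none was called at 72 h against naive, with log2 changes of 1.71 for Clec12a (adjusted p = 0.421), 1.18 for Clec7a (0.544) and 0.35 for Clec4n (adjusted p = 1). Whether changes of these sizes could be detected at such depth was not tested, so the missing calls do not show that the levels stayed the same. Clec5a and Clec4a2 passed the limit on low counts and were tested. Clec5a changed by 0.20 at 24 h against naive (adjusted p = 0.683), by 0.18 at 72 h against naive (0.796) and by -0.02 at 72 h against 24 h (0.962). Clec4a2 changed by -0.63 ± 0.28 at 24 h against naive (adjusted p = 0.309), by -0.13 at 72 h (0.903) and by 0.49 at 72 h against 24 h (0.419). By edgeR 0 of the 2 tested genes were called in each comparison, with an unadjusted p under 0.05 for 1, 0 and 0 of them, and DESeq2 called 0. Of all 18436 genes, 2.1% were called at 24 h and 0.26% at 72 h against naive, and 9.21% at 72 h against 24 h.

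The sides were paired within the animal, as a description. At 24 h the ipsilateral value was the higher in 15 of 15 animals for Clec4d, Clec4e, Clec4n, Clec5a and Clec7a, in 14 for Clec12a and in 11 for Clec4a2. At 72 h it was the higher in 15 of 15 for all but Clec4a2, where it was in 13. Over all 19946 genes fitted, 13% were higher ipsilaterally in every animal at 24 h and 18.6% at 72 h, and 0.00501% in naive animals. On the log2 scale the ipsilateral excess at 72 h was 9.18 for Clec4d, 6.51 for Clec4e, 4.6 for Clec4n, 4.53 for Clec7a, 2.72 for Clec12a, 2.20 for Clec5a and 1.24 for Clec4a2. At 24 h it was 6.81 for Clec4d, 6.63 for Clec4e, 4.83 for Clec7a, 3.59 for Clec4n, 2.19 for Clec12a, 1.95 for Clec5a and 0.95 for Clec4a2. For Clec4d and Clec4e the contralateral side held only 15 and 19 reads at 24 h, and 2 of each at 72 h. Single contralateral reads thus set the size of their excess, and nothing is read from its change between the times. In naive animals the right punch was the higher in 6 of 13 for Clec5a and Clec4a2 and in 8 of 13 for Clec4n and Clec7a, so the sides did not separate.

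Levels of 5 steroid hormones, which the labels give as log10 values, were set against expression within groups. Many animals, most of batch C among them, share an identical androstenedione value, and many share an identical estradiol value. The labels do not say whether such repeated values are limits of the assay, so slopes on these hormones may not follow measured levels. By edgeR 0 of the 7 genes, and 0% of all genes, had a called slope on any hormone. Unadjusted p was under 0.05 for 3 genes with androstenedione and 1 with progesterone, and for 0 with testosterone (20 males), dehydroepiandrosterone or estradiol; DESeq2 was not run on slopes. The androstenedione slopes were -1.65 ± 0.65 log2 units per log10 unit for Clec12a, -1 ± 0.42 for Clec4n and -1.03 ± 0.45 for Clec4d, each with adjusted p = 1 by edgeR. The progesterone slope of Clec4a2 was 0.50 ± 0.21 (adjusted p = 0.487 by edgeR).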

How the data were processed

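RNA was sequenced from cortical punches of both sides of 44 mice (88 libraries). HISAT2 2.0.5 and the build mm10 are named in the submitters' processing notes; the sources used here give neither the counting program nor its strand setting. A single table of unnormalized gene counts was deposited. CPM (per total count) and RPKM (CPM per kb of merged GENCODE M21 exons) were computed here from these deposited counts, and hormone levels are the log10 values per the labels. Genes with no symbol (37) took 0.013% of the counts.

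Each side was fitted with edgeR 4.0.16 (R 4.3.3, limma 3.58.1): filterByExpr, TMM, 6 groups of sex and time, a batch term, two-sided quasi-likelihood F tests, Benjamini-Hochberg over all genes, threshold 0.05. The ipsilateral fit had 43 libraries, 19126 genes and 35 residual degrees of freedom, the contralateral one 44, 18436 and 36. Sides were compared with the animal as a block, named in the labels (86 libraries, 43 animals). Groups hold separate animals, and the lowest chi-square between 2 libraries of a group was 2.64 per gene. DESeq2 1.42.0 was an alternative, beside RLE scaling, no limit on low counts, no batch term, batch B alone and leaving out libraries. The fits were tested on simulated data. Counting intervals and floors (3 counts) cover counting error only.

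The 7 genes, the lists and the tests were chosen with earlier results of these data known. All 7 are named throughout; of each other list up to 3 genes with the smallest p at 72 h against 24 h or at 24 h against naive are named, and up to 5 genes most like each receptor, among protein-coding genes averaging 0 or more in log2 CPM (prior count 2).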

Additional observations from a re-analysis of the deposited data

Results flagged for a closer look

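Single libraries stood apart from the rest of their group of 4 to 10 in 22 cases over 77 groups tested, each gap exceeding Dixon's 95% critical value. Chance alone gives about 1 in 20 groups where values are normal and groups independent. CPM need not be normal, and the same libraries recur over the genes, so no excess over chance is read from the 22. In 4 of the 22 a single read stood among libraries without reads, which meets the criterion by construction, so these 4 say nothing beyond the read itself. Of the 22 cases, 7 were the 24 h female RF1. On the ipsilateral side it held the highest Clec4d (17.4 CPM), Clec4e (20.5), Clec4n (11.2), Clec5a (14.7), Clec7a (11.1) and Clec4a2 (1.84) of the 24 h females, and on the contralateral side the highest Clec4d (0.331). The naive male EM3 was highest for Clec12a (1.24 CPM), Clec7a (0.892) and Clec4d (0.0687, 1 read). The 24 h male DM2 was highest for ipsilateral Clec12a (9.88 CPM) and lowest for contralateral Clec4n (0.113).

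Among 72 h libraries, SF3 was highest for Clec4n (19.4 CPM) in females, and TM2 for Clec4e (3.33) and SM1 for Clec5a (14.3) in males. Contralaterally, SF2 (0.0623) and SM1 (0.0581) held the 1 Clec4e read of their groups, and LF3 was lowest for Clec5a (0.217). Contralateral Clec5a was also highest in the 24 h female QF1 (3.98 CPM) and in the naive male CM1 (2.97), and contralateral Clec4n in the naive female GF3 (1.17). The naive female KF2 held the 1 ipsilateral Clec4e read (0.0632).

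The ipsilateral 72 h library of PM1, which entered no group, held Clec4d at 6.96 CPM, Clec4e at 1.24, Clec4n at 3.85, Clec5a at 8.32, Clec7a at 10.1, Clec12a at 1.43 and Clec4a2 at 1.49. All 7 values were above the highest naive ipsilateral library.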

How the results depend on the processing

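The fall of Clec4e at 72 h against 24 h was called under every alternative run for the mean over the sexes and reversed under none, and no other value changed sign past the threshold. The number of genes of the set called in that comparison, 1, was 2 with RLE scaling, with DESeq2, without the batch term and in batch B alone. It was 4 without the animals PF1 and PM1 and 3 without DM2, EM3 and LF3, which was chosen after the data were seen, and ran over 1 to 4 with 1 library left out. Without PF1 and PM1 the calls were Clec4e, Clec7a (0.96), Clec12a (1.95) and Clec4a2 (1.16, adjusted p = 0.00992). Clec4a2 ranged over 0.53 to 1.16 with 1 library left out, and 12 such fits called it. In batch B alone, a smaller fit, all genes called were 3854 against 7078, in females 2326 against 6320 and in males 1075 against 4419. There 1 of 4 genes of the set was still called in females and 0 of 1 in males, where Clec4e was -2.75 (adjusted p = 0.0594). Without the limit on low counts Clec7a was not called in females (1.11, adjusted p = 0.0524). Side differences without the replicate block kept their direction, Clec4d at 6.76 against 6.81 with it at 24 h and Clec12a at 2.61 against 2.19. The contralateral count of all genes at 72 h against 24 h, 1698, was 45 without LF3, 1045 without QF1, 3041 without PF1 and 2944 without PF2, while that of Clec5a and Clec4a2 stayed 0. With Spearman's rho in place of Pearson's r over all 43 ipsilateral libraries, 4 of the 5 genes most like Clec4e and Clec12a were shared, 2 for Clec4n and Clec4a2, 1 for Clec4d and Clec7a and 0 for Clec5a. The depth limits Clec4d and Clec4e in naive and contralateral libraries, where single reads set the values.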
